A study of Mus musculus with 30 samples.

Results

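The genes of the cytosolic ribosomal proteins were followed across 30 libraries of mouse brain tumours and normal cortex. A gene was a member where its name was Rpl or Rps with a number, with or without a closing a, x or l and digit, or was Rpsa, Rplp0, Rplp1 or Rplp2. This gave 84 of the 24421 genes listed, 33 of the small and 51 of the large ribosomal subunit, of which 80 were expressed highly enough to be tested and 76 averaged at least 5 RPM, the reads scaled to a common library size. The name rule left out genes named as pseudogenes (Rps15a-ps6 and the like), the Rps6ka kinases and the mitochondrial ribosomal proteins, and it took in paralogs such as Rpl22l1, Rps27l and Rpl3l and the pseudogene Rps4l.

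The study asked how variants of the epidermal growth factor receptor (EGFR) affect glioblastoma, with polyadenylated RNA of bulk cortical tissue sequenced from mice at postnatal day 70. The tumours carried EGFR A289I (5 libraries), A289V (4), R108G (3), R108K (4), R222C (3) or T263P (3), all changes in the extracellular part of the receptor, or wild-type EGFR (3), or mCherry, a red fluorescent protein with no receptor (3). The reference tissue was cortex of wild-type mice (2). How the receptors were delivered, the promoter that drives them and any other lesion that the tumours share are not given in the sources used here.

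Each ribosome carries about the same set of ribosomal proteins, each in a single copy apart from the stalk proteins, and the genes are transcribed together at high rates in growing cells. Most of their mRNAs start with a C followed by pyrimidines, the 5′ terminal oligopyrimidine (TOP) tract, through which mTORC1 and its partner LARP1 control their translation and stability. Proliferating tumour cells make many ribosomes. Mature neurons also translate heavily but do not divide.

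The annotated start of the mRNA is a sequence feature that the rule did not use. RefSeq promoter stretches (build GRCm38.p6) were found for 63 of the 84 members. At the annotated start, 13 of these 63 (20.6%) had a C followed by at least 4 pyrimidines, against 3.01% of 27025 genes in the same table. Within 5 bases of that start, 46.0% of the members and 21.2% of all genes had such a C with 4 pyrimidines after it. The ETS core CCGGAA was searched on either strand of the 250 bases before the start, as were the motifs below, and was found in 41.3% of the members and 13.6% of all genes. The E-box CACGTG was found in 7.94% and 6.86%, and TATAAA in 6.35% and 14.3%. An annotated start that lies a few bases from the true one loses the tract, so these shares describe the annotation. The 5 members below with a tract at the annotated start are shown beside 3 paralogs without one there. Within 5 bases of that start, Rpl22l1 and Rps27l had such a tract too, and Rpl7l1 had none. Levels given below set these 3 paralogs apart from the other members. Each stretch runs from 60 bases before the start to 20 bases from it on, in lower case, and capitals mark the tract at the start and, upstream, the ETS core.
Rps6 (chr4:86857348-86857427, minus strand): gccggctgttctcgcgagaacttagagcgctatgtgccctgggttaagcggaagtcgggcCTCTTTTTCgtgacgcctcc
Rps10 (chr17:27635225-27635304, minus strand): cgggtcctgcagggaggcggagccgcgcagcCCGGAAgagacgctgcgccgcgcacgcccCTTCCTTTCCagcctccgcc
Rpl38 (chr11:114668520-114668599, plus strand): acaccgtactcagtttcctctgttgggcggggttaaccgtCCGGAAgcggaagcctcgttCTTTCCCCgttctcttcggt
Rplp2 (chr7:141447591-141447670, plus strand): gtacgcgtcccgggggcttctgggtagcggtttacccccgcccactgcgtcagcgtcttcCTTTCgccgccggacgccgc
Rps18 (chr17:33955646-33955725, minus strand): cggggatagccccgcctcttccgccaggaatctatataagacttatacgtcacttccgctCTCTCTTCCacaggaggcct
Rpl22l1 (chr3:28805448-28805527, plus strand): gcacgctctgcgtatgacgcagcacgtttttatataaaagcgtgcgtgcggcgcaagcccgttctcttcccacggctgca
Rps27l (chr9:66946026-66946105, plus strand): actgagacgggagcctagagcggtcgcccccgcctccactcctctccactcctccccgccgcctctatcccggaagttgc
Rpl7l1 (chr17:46782637-46782716, minus strand): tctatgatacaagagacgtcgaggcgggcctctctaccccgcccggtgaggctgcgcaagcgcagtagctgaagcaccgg

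Depth was 2784129 to 24475215 reads per library, recovered from the deposited values, so that 1 read was worth 0.0387 to 0.383 RPM. The share of reads of the ribosomal RNA gene Rn45s, a sign of RNA carried past the poly(A) selection, was 2.47% to 4.57% in the 12 tumours with library numbers 20 to 37, and 0.117% to 1.32% in the other tumours. Library numbers, part of the sample titles, fell below 20, at 20 to 37 or above 37. These ranges are no stated batch, and they cross the groups only in part: all A289I and R108G tumours had numbers above 37, all R222C and T263P tumours and both cortex samples 20 to 37. Neuron markers were high in cortex, at 9.15 and 9.08 (mean log2(RPM + 1) of 20 genes).

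Reads of the 84 members made up 2.31% to 7.79% of all reads in the 28 tumours. In A289V tumours it was 3.21%, 2.31%, 3.66% and 3.58%. In A289I tumours it was 7.49%, 3.54%, 4.95%, 3.58% and 4.70%, and in R108K tumours 7.79%, 6.11%, 6.85% and 4.33%. The A289V tumours sat at the bottom of the range together with 2 of the A289I tumours, while the 2 highest tumours were 1 of R108K and 1 of A289I.

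In the remaining tumours the share kept to a narrower band. It was 5.26%, 5.27% and 4.34% in R108G, 5.43%, 5.04% and 4.93% in R222C and 5.72%, 5.46% and 4.96% in T263P tumours. It was 5.29%, 5.34% and 6.51% with wild-type EGFR, 6.29%, 4.98% and 5.55% with mCherry, and 3.00% and 3.09% in cortex. The 95% Wilson interval of a single library, which covers counting error only, was at its widest 7.76% to 7.82% (R108K library 1), so depth did not limit these values. The mean share was 3.19% ± 0.619 in A289V tumours (SD, n = 4), against 5.61% ± 0.658 with mCherry and 5.72% ± 0.691 with wild-type EGFR (SD, n = 3 each), ratios of 0.569 and 0.558. No p is given for the share, a sum over chosen genes. In bulk tissue, fewer cells of a type and less RNA per cell cannot be told apart.

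**Figure D1:**
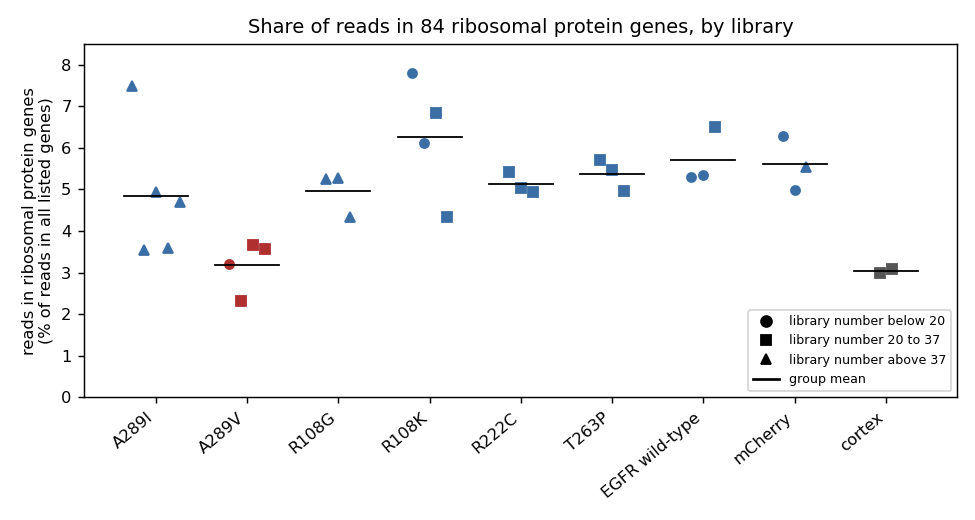
Share of all reads (%) that fell in the 84 ribosomal protein genes, for each library (points, with shapes for the range of library numbers) and each group (line, mean), with the cortex samples at the right. The 4 A289V tumours (red) lie between 2.31% and 3.66% and the cortex samples at 3.00% and 3.09%, whereas the mCherry tumours lie between 4.98% and 6.29%.

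Large subunit genes together had 1.35 to 1.77 times the RPM of small subunit genes in the tumours, and 1.44 and 1.40 times in cortex. The ratio was 1.58, 1.49, 1.63 and 1.52 in A289V tumours, and 1.41, 1.43 and 1.54 with mCherry. The groups overlapped, and the balance of the subunits varied far less than the share itself.

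Levels among the members were also far from equal, although, stalk proteins and paralogs apart, each ribosome needs the proteins in equal number. Per kilobase of annotated transcript, Rplp1, a stalk protein, was highest at 2001 RPM over the tumours, followed by Rpl23a (1468), Rpl19 (1448), Rps12 (1446) and Rplp0 (1399). The lowest of the 76 members averaging at least 5 RPM were the paralogs Rpl7l1 (48.8), Rpl22l1 (116) and Rps27l (140.2), with Rps15a (110.8) and Rps20 (134.7), whose chosen annotated transcripts are long (5130 and 3706 bases). Without the division by length they averaged 568.4 and 499.3 RPM.

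Some core members were listed at levels close to nothing. Rpl26, which binds Mdm2 and the p53 mRNA as well as the ribosome, had 1 read in all 30 libraries, and Rps27, Rpl30 and Rpl34 averaged 1.98, 2.42 and 4.24 RPM over the tumours, against a median of 635 RPM for the 76 members. Each of these 4 has a copy in the annotation that shares 50-base stretches with it: Gm15772 for Rpl26, Gm12191 for Rpl30, Rpl34-ps1 for Rpl34 and Rps27rt for Rps27. All 4 copies are listed at 0 in every library. Only 1.35% of the 50-base windows of Rps27 are found in no other annotated gene. The share was 28.7% for Rpl26, 49.4% for Rpl34 and 52.2% for Rpl30, beside a median of 47.9% over 83 members. Only 3 of these 83 had all their windows to themselves, so sharing windows with another annotated gene was common among the members. Whether other members also have a copy listed at 0 was not tested. Rpl9, with many pseudogenes, a share of 6.68% and 14 genes that share a window with it, averaged 901 RPM over the 30 libraries. How the authors' counting dealt with reads that fit several places is not given in the sources used here, and levels of these 4 genes are best not compared with the rest. Of the tissue-restricted paralogs, Rpl10l, which in mice replaces Rpl10 in male germ cells, had no read, Rpl39l had 32 and Rpl3l, known from muscle, had 68 in all libraries together.

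Over the 28 tumours the members moved together. The median Pearson r between pairs of the 76 members was 0.753 over 2850 pairs (lowest -0.33, highest 0.977), and 62 of the 76 had r above 0.8 with the median of the 76. These values share library and scaling, so they are a description.

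**Figure D2:**
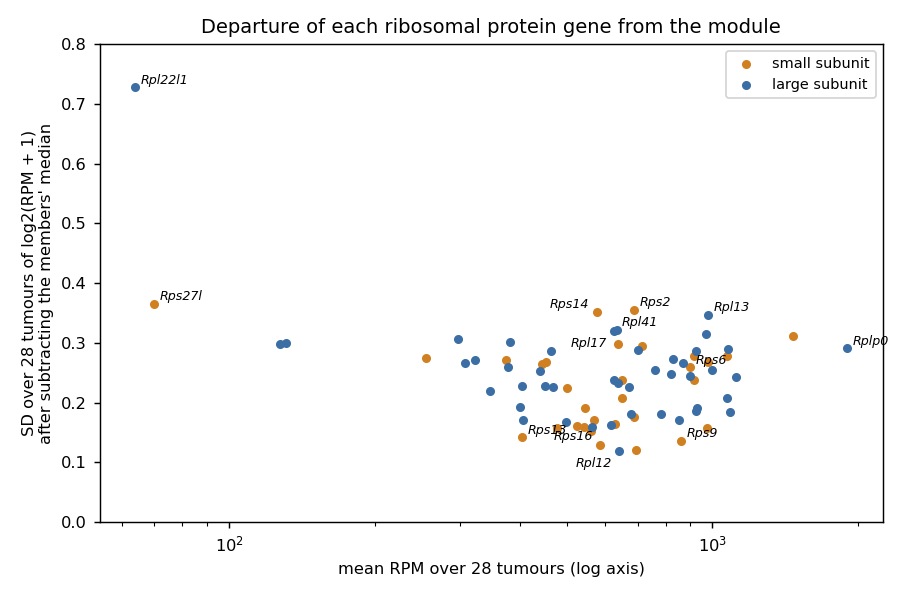
SD over the 28 tumours of log2(RPM + 1), after the median of the 76 members in the same library was subtracted (y axis), against mean RPM over the tumours (x axis, log scale), with small subunit genes in orange and large subunit genes in blue. Rpl22l1 stands apart at 0.73, Rps27l is next at 0.37, and Rpl12 is lowest at 0.12.

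Most members stayed close to the module: their departure, the SD over tumours after the median of the 76 members was taken away, had a median of 0.24 log2. Among these 76 members, those averaging at least 5 RPM, the smallest included those of Rpl12 (0.12), Rps16 (0.13), Rps9 (0.14) and Rps13 (0.14). It was largest in Rpl22l1 (0.73), and among the next were Rps27l (0.37), Rps2 (0.36), Rps14 (0.35), Rpl13 (0.35), Rpl41 (0.32) and Rpl17 (0.32). Of the 76, Rpl22l1 had the lowest r to the median of the members, 0.08, and Rps2 the next lowest at 0.63.

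Rpl22l1 is the paralog of Rpl22, and in mice the Rpl22 protein is known to repress the Rpl22l1 mRNA. Rpl22l1 (chr3:28805436-28807424 in mm10) had 162.9, 115.3, 35.4 and 40.9 RPM in R108K tumours and 123.98, 59.96, 99.5 and 40.7 RPM in A289V tumours. In the other groups it had 42.3 to 64.6 RPM with A289I, 35.4 to 63.0 with R108G, 38.1 to 40.2 with R222C, 29.1 to 53.4 with T263P, 52.0 to 123 with wild-type EGFR and 42.3 to 101.4 with mCherry, against 157 and 128 RPM in cortex. High and low tumours occurred within the same group: the highest and 1 of the lower values were both R108K. The A289V, wild-type EGFR and mCherry tumours overlapped, whereas the R222C values lay just below all 3 of these groups. Rpl22 (chr4:152325742-152334071) had 565, 395, 834 and 422 RPM in R108K tumours and 194, 136, 191 and 257 RPM in A289V tumours, and 183 and 194 RPM in cortex. Rps27l, a paralog of Rps27 that p53 induces, had 131.5, 110.4, 88.5 and 44.1 RPM in R108K and 152, 54.1 and 48.3 RPM in R108G tumours, against 23.2 and 20.2 RPM in cortex. Its highest tumour was R108G library 1 and its lowest, at 23.4 RPM, A289V library 2.

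The tumours as a whole were set against cortex to see which ribosomal protein genes the tumour tissue carried at other levels. Of the 80 members tested, 28 rose and 2 fell in the mean of the 8 tumour groups (limma, Benjamini-Hochberg adjusted p under 0.05 over 15824 genes), when 47.4% of all genes passed, 22.9% up and 24.5% down. The members' median log2 fold change was 0.49, beside 0.03 for all genes tested, and 66 of 80 were higher in the mean. The rises came from both subunits, 12 of 33 small and 16 of 47 large subunit genes. Against mCherry tumours alone, 27 members rose and none fell (38.3% of all genes passed, 17.8% up and 20.5% down), and all 27 had groups that did not overlap, as had 99.7% of all genes called there. Of the 80, 36 had an unadjusted p under 0.05, and the median log2 fold change was 0.57, beside 0.01 for all genes.

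Rplp0 stood furthest from cortex. It is the central protein of the stalk, on which the P1 and P2 proteins sit and elongation factors dock, and its mRNA is a common reference in quantitative PCR. Rplp0 (chr5:115559467-115563727) had 2621, 1636 and 2481 RPM in mCherry tumours, against 411 and 431 RPM in cortex. All 28 tumours, from 668 RPM (A289V library 2) to 3167 RPM (A289I library 1), were above both cortex samples. The log2 fold change was 2.38 ± 0.36 (SE) in mCherry tumours (adjusted p = 2.9e-05) and 2.12 ± 0.29 in the mean of the tumour groups (adjusted p = 3.5e-06).

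Its partners in the stalk did not share that size of change. Rplp2 had 702.5, 597 and 601 RPM in mCherry tumours and 282 and 337 RPM in cortex, with a log2 fold change over all tumour groups of 0.98 ± 0.26 (adjusted p = 0.0029). Rplp1 had 1096, 1071 and 760 RPM in mCherry tumours and 1108 and 1285 RPM in cortex, and did not pass over all tumour groups (log2 fold change -0.32 ± 0.26, adjusted p = 0.329). The difference between these genes was not tested.

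Among the other large rises over all tumour groups, Rps27l rose by 1.54 ± 0.35 on the log2 scale, Rpl18 by 1.22 ± 0.28, Rps26 by 1.12 ± 0.30, Rpl32 by 1.05 ± 0.28, Rpl7l1, a paralog of Rpl7, by 1.05 ± 0.23, and Rps4x, encoded on the X chromosome, by 0.96 ± 0.30. Rps6, the substrate of the S6 kinases, had 1137, 695 and 1220 RPM in mCherry tumours and 485 and 521 RPM in cortex, and rose by 0.79 ± 0.25 over all tumour groups (adjusted p = 0.00979). In mCherry tumours alone, the largest rises after Rplp0 were 1.62 in Rps27l, 1.40 in Rps26, 1.33 in Rps4x, 1.26 in Rpl7l1, 1.21 in Rpl18, 1.198 in Rpl10 and 1.15 in Rpl22 (SE 0.29 to 0.43). Over all tumour groups Rpl5, which with Rpl11 and the 5S RNA holds back Mdm2, rose by 0.84 ± 0.28, whereas Rpl11 did not pass (log2 fold change 0.51 ± 0.26, adjusted p = 0.113). Rps27a, a fusion of ubiquitin and a ribosomal protein, and Rpsa, known also as the laminin receptor precursor, did not pass over all tumour groups either, with log2 fold changes of 0.09 ± 0.25 and 0.35 ± 0.29.

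The 2 that fell were Rpl22l1 (log2 fold change -1.31 ± 0.42, adjusted p = 0.0118) and Rps4l (-1.77 ± 0.57, adjusted p = 0.0121). Rps4l, which RefSeq lists as a transcribed pseudogene although its name meets the rule, had 10.7 and 7.36 RPM in cortex, and 2.76 ± 4.06 RPM over the 28 tumours (SD), with a highest value of 21.99 RPM in mCherry library 1. Rpl22 itself rose by 0.95 ± 0.26. Rps14, Rps21 and Rps29 had the next lowest log2 fold changes, -0.53, -0.44 and -0.41, and did not pass.

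Neuron markers moved with this comparison. All 20 fell over the tumour groups, with a median log2 fold change of -3.59, and their summed level was 259 to 14440 RPM in the tumours and 18963 to 19069 RPM in cortex, with none at 0 in any group. Their mean was then a covariate, in a fit that left the 20 markers themselves out, here and below. With it, 1 of the 80 members passed, in the mCherry and in the whole-tumour comparison. Of all genes in the fit 1619 and 1869 passed (10.2% and 11.8%), and the median over the members was -0.01 over all tumour groups. Rplp0 passed in all 43 alternatives tried for the whole-tumour comparison and all 18 for the mCherry comparison. Without cortex sample 1 or 2, a single cortex sample is left and assumed to vary like the other groups. The members' medians were then 0.44 and 0.53 over all tumour groups, beside 0.04 and 0.03 for all genes. In mCherry tumours against cortex they were 0.56 and 0.62, beside 0.02 and 0.02. Without mCherry library 3, 15 members passed in that comparison, when 4733 of all genes did.

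**Figure D3:**
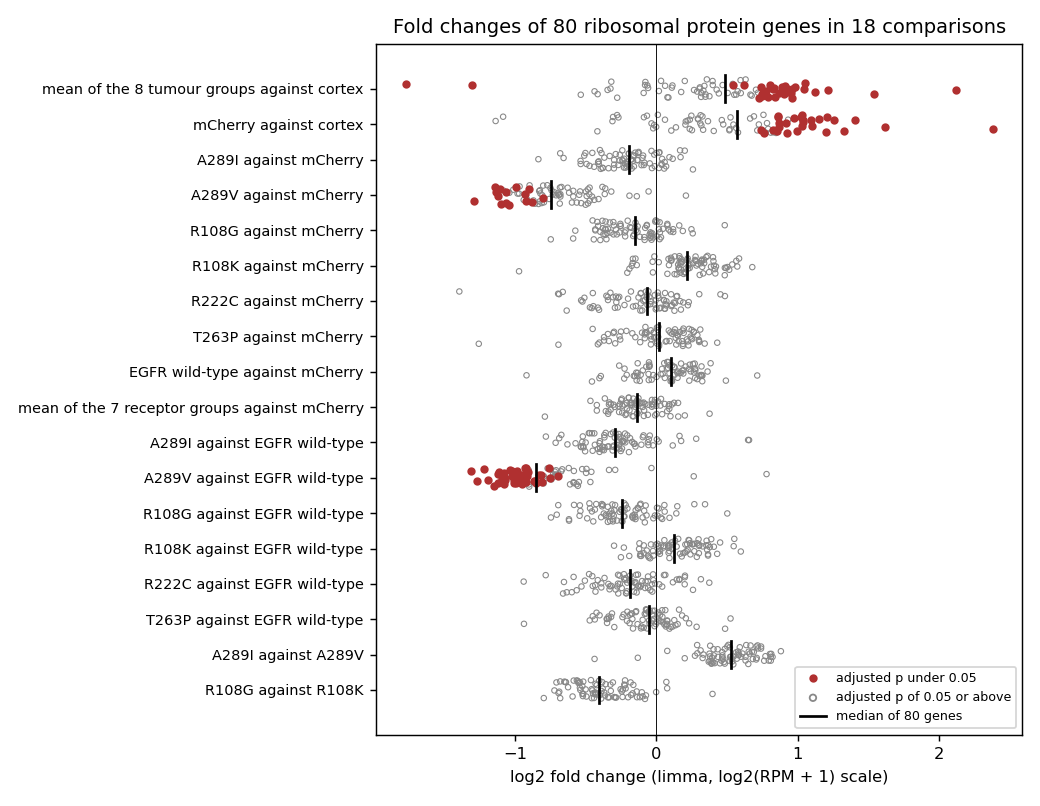
Log2 fold changes of the 80 tested ribosomal protein genes in 18 comparisons, each the first group named over the second, with filled red points for an adjusted p under 0.05 and a vertical line for the median of the 80 genes. Red points appear in 4 comparisons: both with cortex, where Rplp0 lies furthest right at 2.12 and 2.38, and A289V against mCherry and against wild-type EGFR, where medians are -0.75 and -0.85.

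The receptor forms were each compared with mCherry, to see what a receptor adds over the control protein. Only A289V tumours gave members that passed: 15 fell and none rose, when 4.91% of all genes passed, 3.23% up and 1.68% down. The median log2 fold change of the 80 members was -0.75, beside 0.00 for all genes, and 79 of 80 were lower in the mean. The falls comprised 8 of 33 small and 7 of 47 large subunit genes, and in all 15 the A289V and mCherry libraries did not overlap, as in 86.7% of all genes called there. Whether called or not, groups did not overlap in 64 of the 80 members (80%) and in 19.2% of all genes.

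Rps20, a small subunit protein, had 268, 215.5, 242.5 and 328 RPM in A289V tumours and 604, 545 and 536 RPM with mCherry (log2 fold change -1.10 ± 0.21, adjusted p = 0.0244). Its 4 A289V values lay within or below the 324 and 336 RPM of cortex.

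Rplp0 had 931, 668, 1371 and 1163 RPM in A289V tumours, fell by 1.14 on the log2 scale and stayed above cortex in each library. Rpl22 fell by 1.14, Rps28 by 1.12, Rpl11 by 1.10, Rps26 by 1.06 and Rps4x by 1.06 (SE 0.27 to 0.31, adjusted p = 0.0335 to 0.0494). Rps6, with 438, 463, 431 and 610.2 RPM in A289V tumours, fell by 1.04 ± 0.26 (adjusted p = 0.035). Other called members were Rplp2, Rps27a, Rpl23a, Rpl9 and Rpl37a, with falls of 0.80 to 0.99. Rpl22l1 (log2 fold change 0.21 ± 0.43) and Rps2, a small subunit protein near the mRNA entry (-0.05 ± 0.30), had no difference past the test.

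This count rests on single libraries, and so does the count over all genes, 777. Without A289V library 1 or 2 or mCherry library 3 no member passed and 3, 3 and 2 of all genes did, while the members' medians were -0.75, -0.63 and -0.74. Without mCherry library 1 or 2, 8 and 5 members passed, of 1316 and 104 genes in all. With a term for 2 or 3 ranges of library numbers no member passed, and 2 and 0 of all genes did. With the neuron marker mean as a covariate no member and 1 of all genes passed, the median was -0.46, and 24 members had an unadjusted p under 0.05. Without mCherry library 2, which together with wild-type EGFR libraries 1 and 2 had Met above 1000 RPM, and with those left out too, 3 members passed, of 46 genes in all. Within library numbers below 20 (1 A289V and 2 mCherry libraries) the median was -0.67.

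Against wild-type EGFR, which asks what the variant adds over the normal receptor, 42 of the 80 members fell in A289V tumours and none rose, when 13.7% of all genes passed, 9.69% up and 3.96% down. They were 21 of 33 small and 21 of 47 large subunit genes, none with overlapping groups, as for 89.1% of all genes called there. Groups did not overlap in 67 of the 80 members (83.8%) and in 25.5% of all genes, whether called or not. The median of the 80 was -0.85, beside -0.01 for all genes, and 78 of 80 were lower in the mean.

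Rps27l had 33.97, 23.4, 49.1 and 34.4 RPM in A289V tumours and 69.4, 107.97 and 85.3 RPM with wild-type EGFR, the largest fall at -1.31 ± 0.36 on the log2 scale (adjusted p = 0.0196). Rpl39, a small protein at the exit tunnel, had 296, 151, 292 and 274 RPM in A289V tumours and 617, 567 and 585 RPM with wild-type EGFR (-1.27 ± 0.32, adjusted p = 0.015). Rps20 had 563, 577 and 596 RPM with wild-type EGFR and the lowest adjusted p of the members, 0.00679, at a log2 fold change of -1.15 ± 0.21. In each of these 3 genes every A289V tumour was below every wild-type EGFR tumour.

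Rpl27 fell by 1.22, Rpl36 by 1.19, Rps26, Rplp2 and Rpl22 by 1.12 each, and Rps23 by 1.02. Rps6 fell by 0.91 ± 0.26 (adjusted p = 0.0219), Rpl11 by 1.07, Rps27a by 1.02, Rplp0 by 0.99 and Rpsa by 0.97. Rplp1 (log2 fold change -0.67 ± 0.27, adjusted p = 0.0973) and Rpl5 (-0.71 ± 0.29, adjusted p = 0.0988) did not pass, and Rpl22l1 had a log2 fold change of -0.03 ± 0.43. Members with a C and pyrimidine tract at the annotated start had a median log2 fold change of -0.90 (13 genes, 6 called) and those with another annotated start -0.84 (46 genes, 27 called). Against mCherry the same genes had medians of -0.68 (2 called) and -0.78 (8 called), and over all tumour groups against cortex 0.38 (4 called) and 0.52 (18 called).

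**Figure D4:**
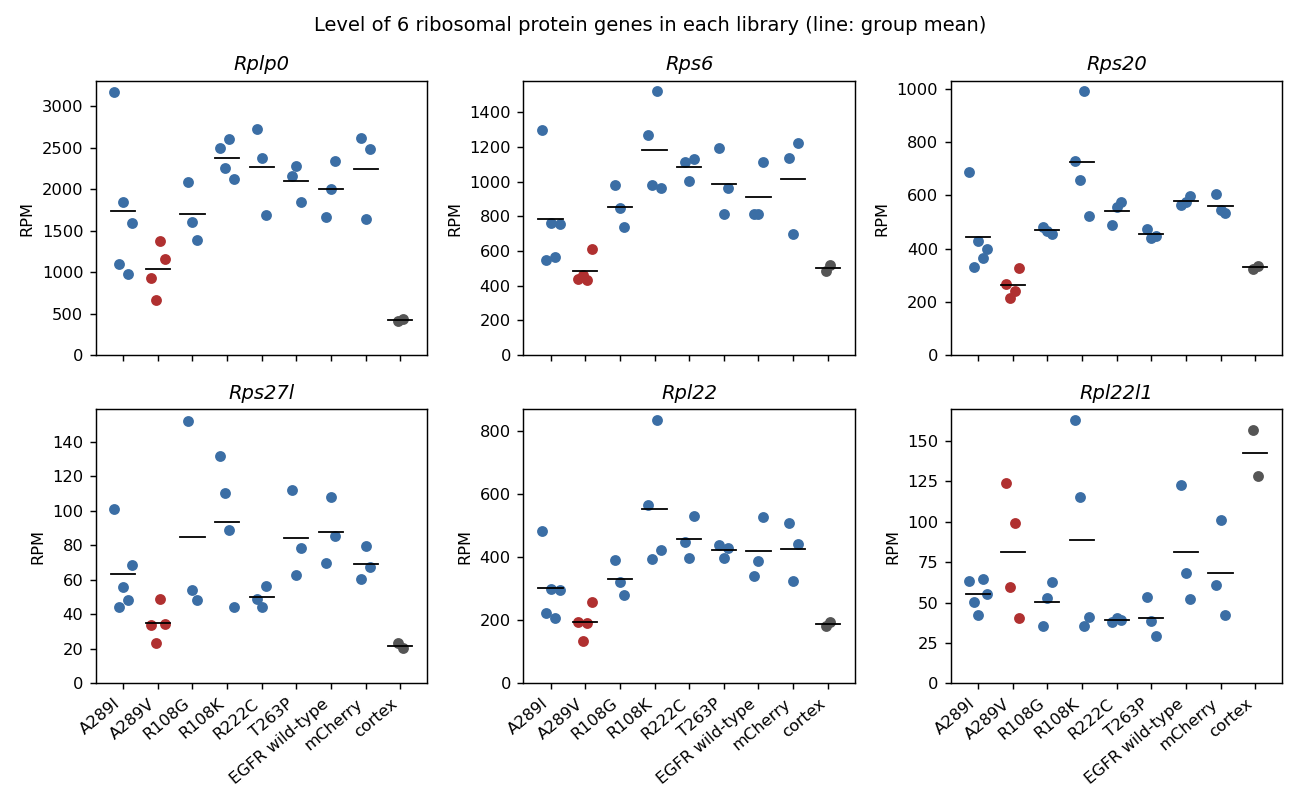
RPM of Rplp0, Rps6, Rps20, Rps27l, Rpl22 and Rpl22l1 in every library (points), with group means (lines), A289V in red and cortex in grey at the right. A289V tumours have 216 to 328 RPM of Rps20, against 536 to 604 RPM with mCherry, whereas Rpl22l1 overlaps between A289V and mCherry tumours and is high in cortex (157 and 128 RPM).

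Wild-type EGFR and A289V tumours also differed in other cell markers. Neuron markers summed to 4076 to 14440 RPM in A289V tumours, 407 to 2101 RPM with wild-type EGFR and 813 to 4284 RPM with mCherry, and 17 of the 20 were higher in A289V than with wild-type EGFR. Cell cycle genes summed to 785 to 1699 RPM in A289V tumours, 2333 to 2988 RPM with wild-type EGFR and 1781 to 2934 RPM with mCherry, and 12 of 24 were lower against wild-type EGFR. Astrocyte markers summed to 4085 to 7249 RPM in A289V tumours, 1744 to 4972 RPM with wild-type EGFR and 1406 to 5851 RPM with mCherry, and 5 of 12 were higher against wild-type EGFR. Markers of myelinating oligodendrocytes summed to 4380 to 7621, 2607 to 4361 and 1299 to 2698 RPM in these 3 groups, with 2 of 14 higher, and those of microglia to 1093 to 1836, 660 to 1874 and 1226 to 1323 RPM, with 1 of 10 higher. Macrophage markers summed to 144 to 257, 496 to 943 and 277 to 820 RPM in the same order. Of these, Lyz2 was lower against wild-type EGFR (log2 fold change -2.29 ± 0.52). Among markers of oligodendrocyte precursors, Neu4 (1.81 ± 0.46) and Tnr (1.59 ± 0.44) were higher. The nuclear RNA Malat1 was higher too (log2 fold change 1.46 ± 0.49, adjusted p = 0.0468). The part of these other markers in the result was not tested.

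With the neuron marker mean as a covariate none of the 80 members passed (13 at an unadjusted p under 0.05), and the members' median was -0.46. No other gene passed in that fit, which left out the 20 markers. Without the covariate 2160 genes passed, markers among them. Without A289V libraries 1 and 2, whose neuron marker means of 8.34 and 8.66 were the highest of the tumours, no member and 1 of all genes passed, and the median was -0.70. The count was 1 without wild-type EGFR library 2 or A289V library 2 (78 and 128 of all genes), 13 and 14 without A289V library 1 or wild-type EGFR library 3 (589 and 1846), and 23 without wild-type EGFR library 1 (1474). Within library numbers 20 to 37 (3 A289V libraries, 1 of wild-type EGFR) the median was -1.08, and below 20 (1 and 2 libraries) it was -0.65, with no member called in either and 17 and 0 of all genes. Without the libraries of high Met, which leaves 1 of wild-type EGFR, no member and 33 of all genes passed, 61 members had an unadjusted p under 0.05 and the median was -1.09.

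**Figure D5:**
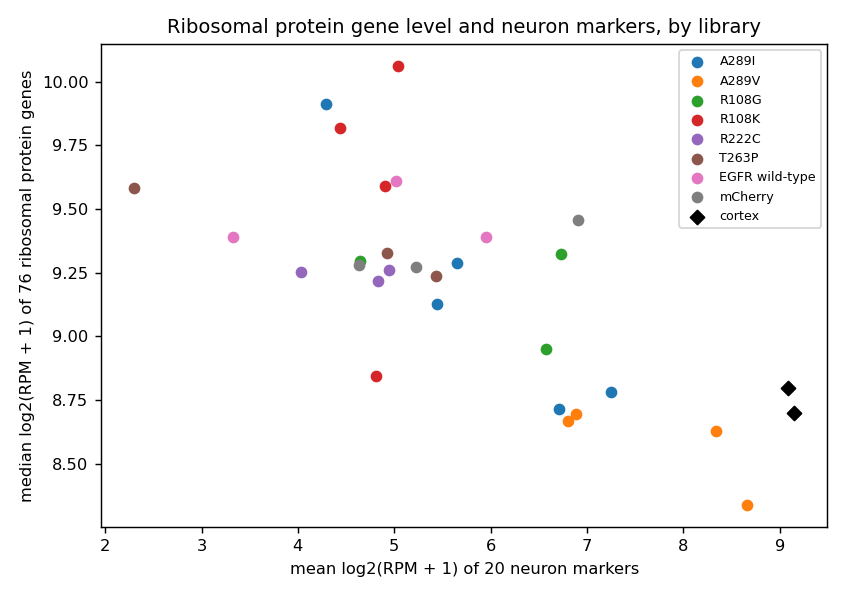
Median log2(RPM + 1) of the 76 ribosomal protein genes (y axis) against the mean log2(RPM + 1) of 20 neuron markers (x axis) in each library, with groups in colours and cortex as black diamonds. The A289V tumours lie between 8.34 and 8.69 on the y axis, and the cortex samples at 8.70 and 8.80 lie at the right, with the highest neuron marker means.

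Across the 28 tumours the level of the members ran against that of the neuron markers, with a Pearson r of -0.69 (-0.46 without the A289V tumours), of microglia markers at -0.63 (-0.62) and of astrocyte markers at -0.62 (-0.51). It ran with that of other translation genes. The r was 0.95 for TOP mRNAs outside the ribosome (elongation factors, Npm1 and others), 0.86 for ribosome biogenesis genes and 0.85 for mitochondrial ribosomal proteins. Without the A289V tumours these were 0.93, 0.79 and 0.84. For genes of mTORC1 and the S6 kinases r was 0.49 (0.31 without the A289V tumours). Lists outside translation ran with it too: r was 0.64 for nuclear-encoded respiratory chain genes (0.82 without the A289V tumours) and 0.63 for cell cycle genes (0.40 without the A289V tumours). For Myc, which drives ribosome synthesis in many cells, r was 0.55 (0.41 without them), for Egfr 0.12 and for Rn45s -0.03. These correlations are a description over tumours that share a scaling, and no p is given.

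Other translation genes were read in the same comparisons. In A289V against wild-type EGFR, where 3.96% of all genes fell, 7 of 20 TOP mRNAs outside the ribosome fell, led by Btf3 (log2 fold change -1.13), Gnb2l1 (-1.03), which encodes Rack1 of the small subunit, and Npm1 (-1.23). Of 35 ribosome biogenesis genes 12 fell, among them Ebna1bp2 (-1.16), Nop16 (-0.95) and Mrto4 (-1.16), and of 23 initiation factors tested 3 fell. Of 17 genes of mTORC1 and the S6 kinases 1 fell, Eif4ebp1 (-1.58), and the list's median was 0.00. Of the 77 mitochondrial ribosomal proteins 7 fell. In A289V against mCherry, where 1.68% of all genes fell, the same lists gave 1, 2, 1, 0 and 0 falls.

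Myc had 77.4, 51.3, 127.4 and 125.3 RPM in A289V tumours, 156, 97.1 and 192 RPM with wild-type EGFR, and 155, 136 and 288.6 RPM with mCherry. It did not pass in either comparison (adjusted p = 0.434 and 0.248). It had 4.99 and 4.81 RPM in cortex, below all tumours.

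The other receptor forms gave no called member against mCherry. The median log2 fold change of the members was -0.19 in A289I (0.607% of all genes passed, 0.525% up and 0.0822% down), -0.15 in R108G (0.0379%), 0.22 in R108K (0.0695%, 0.0506% up and 0.019% down), -0.07 in R222C (0%), 0.02 in T263P (0.00632%) and 0.10 with wild-type EGFR (0%). At an unadjusted p under 0.05 there were 3, 1, 3, 2, 0 and 1 members. The lowest p belonged to Rps23, Rpl24 and Rpl13 in R108K (log2 fold changes 0.59, 0.57 and 0.68), to Rps4l, Rps28 and Rpl17 in R222C (-1.39, -0.66 and -0.63), to Rps4l, Rpl22l1 and Rpl17 in T263P (-1.26, -0.69 and -0.45) and to Rps2, Rps23 and Rps4l with wild-type EGFR (0.71, 0.49 and -0.92). In A289I, Rps4x (-0.68) and Rps26 (-0.66) were among the 3 lowest, and in R108G Rps4x (-0.59) and Rpl21 (-0.45). Rpl36a, encoded on the X chromosome, had the lowest p in both A289I (log2 fold change -0.83 ± 0.28) and R108G (-0.75 ± 0.32), with adjusted p = 0.221 and 0.533; it had 307.9, 163.5, 258, 162 and 186 RPM in A289I tumours, 209, 231 and 225 RPM in R108G tumours and 514, 273 and 367 RPM with mCherry. In the mean of all 7 receptor groups none passed either (0.0379% of all genes passed), and none had an unadjusted p under 0.05; Rps28 and Rpl37a were among the 3 members of lowest p (log2 fold changes -0.47 and -0.34).

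Against wild-type EGFR, the other 5 variants gave no called member, with medians of -0.29 in A289I (0.335% of all genes passed, 0.221% up and 0.114% down), -0.25 in R108G, 0.12 in R108K, -0.19 in R222C and -0.05 in T263P (0% of all genes in these 4). The numbers at an unadjusted p under 0.05 were 8, 3, 0, 2 and 0. The lowest p in A289I was again that of Rpl36a (-0.78 ± 0.28), in R108G that of Rpl27 (-0.74 ± 0.31), in R108K that of Rpl15 (0.55 ± 0.27), in R222C that of Rpl14 (-0.65 ± 0.31) and in T263P that of Rpl22l1 (-0.94 ± 0.46). Next came Rpl7 and Rpl27 in A289I (-0.53 and -0.67), Rps15a and Rpl36a in R108G (-0.70 and -0.69), Rps24 and Rps14 in R108K (0.60 and 0.55), Rpsa and Rps27l in R222C (-0.66 and -0.78), and Rpl15 and Rps20 in T263P (0.49 and -0.35).

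Different changes at the same residue were compared directly. Between A289I and A289V no member passed (0% of all genes passed), although 43 had an unadjusted p under 0.05. The members' median was 0.53, higher in A289I, beside 0.00 for all genes. Rps20 had 689.5, 329, 427, 365 and 399.7 RPM in A289I tumours against 268, 215.5, 242.5 and 328 RPM in A289V tumours (log2 fold change 0.71 ± 0.19, adjusted p = 0.107), and Rplp2 had a log2 fold change of 0.81 ± 0.23 (adjusted p = 0.113). A289I tumours spread widely, and the lowest A289I value of Rps20 was just above the highest of A289V. Between R108G and R108K none passed (0% of all genes), and 13 had an unadjusted p under 0.05. The members' median was -0.40, lower in R108G, beside 0.02 for all genes. Rps15a (-0.80 ± 0.28), Rps20 (-0.59 ± 0.21) and Rps27a (-0.71 ± 0.26) had the lowest p there, with adjusted p = 0.394 to 0.418.

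Over all 8 tumour groups together, 13 of the 80 members differed (limma F-test, 10.3% of all genes passed), and 57 had an unadjusted p under 0.05. Those called included Rps20, Rpl22, Rpl11, Rplp2, Rps6, Rps23, Rps27a, Rps14, Rpl7, Rplp0 and Rpl39. The count changed with single libraries, as did that over all genes, 1633. Without A289V library 1 or 2, 1 member passed (216 and 229 of all genes), and 7 without A289V library 4 (1716). Without R108K library 1 or 3, 8 and 7 passed (1387 and 1309 of all genes), and 45 without R108K library 4 (1667). It was 37 members without A289I library 1 (2103 of all genes), and 8 without R222C library 1 or 2 (1265 and 1202).

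Outside the name rule, the genes whose level over the 28 tumours was most like the median of the members, among 12525 compared, were Rps15a-ps6 (r = 0.944), Gnb2l1 (0.917), Snrpd2 (0.912), a component of the spliceosome's Sm ring, Gm5148 (0.909) and Prmt1 (0.907), an arginine methyltransferase. Rps15a-ps6 is named as a pseudogene of a member, and its reads may be shared with it.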

How the data were processed

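Poly(A) RNA libraries, stranded per the labels' protocols, were made from bulk tissue. The submitters' processing notes name FastQC, STAR 2.5.0a, DESeq2 1.20.0 and mm10 without their roles. The deposited signal, in tables titled RPM, came to whole reads after division by a constant per library (at least 99.9959% of values within 0.05 of a read). It is therefore the count of reads divided by a size factor, not RPM as the design assumed; division by 10.3, the same for all, gave values called RPM here. Reads were recovered for shares and count models.

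On log2(RPM + 1), limma 3.58.1 (R 4.3.3, trend and robust) fitted 9 group means to 30 libraries; a gene entered if 3 or more libraries reached 1 RPM (15824 genes), with two-sided tests and Benjamini-Hochberg adjustment (threshold 0.05) within each of 18 comparisons and an F-test. The fit was run on simulated data as a check of the code. Genes varied independently there, unlike the members here, so that run does not cover genes that move together. Fold changes on this scale understate those of low genes. Counts at an unadjusted p under 0.05 describe the members only, as the number of all genes at that cut is not reported here. The labels do not tie libraries to litters or batches, so p-values measure the spread between these samples.

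Members, lists and tests were chosen with earlier results of these data known. Named were the 8 largest called rises and falls per comparison or, with none called, the 3 members of lowest p; the 8 largest and 5 smallest departures; the 5 highest and lowest levels per length; paralog pairs and Rps6, Rpsa, Rplp0, Rplp1, Rplp2, Rpl5, Rpl11 and Rps27a; the 5 most similar other genes; and up to 4 called genes per other list. Some genes that this rule names are not reported here. Annotation was GENCODE M21 and RefSeq GRCm38.p6. Alternatives are given in the closing section; edgeR 4.0.16 and DESeq2 1.42.0 were among them.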

Additional observations from a re-analysis of the deposited data

Results flagged for a closer look

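Among 36 measures of the members in the 3 groups with 4 or 5 libraries, 9 group values had a library far from the others, and chance flags about 1 in 20. In A289I library 1, 4 genes were high: Rpl10 (1186 RPM, other A289I tumours 600.2 to 762), Rpl7 (1264 RPM, others 604 to 762), Rps20 (689 RPM, others 329 to 427) and Rps6 (1295 RPM, others 547 to 759). In A289V library 2, Rpl39 (151 RPM, others 274 to 296) and Rps28 (96.9 RPM, others 164 to 177) were low, and in A289V library 4 Rpl11 was high (505 RPM, others 349.5 to 370.5). Rplp1 was low in R108K library 4 (752 RPM, others 1668 to 1783). The ratio of large to small subunit RPM was high in A289I library 3 (1.65, others 1.46 to 1.496).

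The change against mCherry differed between A289V and wild-type EGFR tumours in 42 members, by the test of the difference itself, which is the comparison of A289V with wild-type EGFR.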

How the results depend on the processing

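For the 5 counts of called members above 0, 92 of 148 alternatives stayed within 1.5 times the count reported, 11 of 18 for mCherry against cortex, 38 of 43 for all tumour groups against cortex, 5 of 22 for A289V against mCherry, 12 of 23 for A289V against wild-type EGFR and 26 of 42 for the F-test. For the 14 counts of 0, 301 alternatives gave 0 as well and 7 gave more. The members' median log2 fold change in A289V stayed negative in all 22 alternatives against mCherry (-0.80 to -0.46) and all 23 against wild-type EGFR (-1.09 to -0.46). Named genes kept direction and side of the threshold in 1640 of 1858 gene and setting pairs, 199 lost the call, 14 gained it and 5 reversed. No paired analysis was possible because library numbers are unique to each sample and the replicate numbers follow accession order. The alternatives within one range and without A289V libraries 1 and 2 were chosen after seeing the data. Where a value moved, the cause was not tested.

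Counts of called members are followed in brackets by those of all genes. With library weights they were 42 (8713) for mCherry against cortex and 64 (12104) for all tumour groups against cortex. Against mCherry they were 45 (3101) for A289V and 1 (325) for A289I. For A289I they were 3 (456) against wild-type EGFR and 17 (3241) against A289V, and for the F-test 61 (5876). A term for 2 ranges of library numbers gave 15 (4734) for mCherry against cortex, 0 (2) for A289V against mCherry and 8 (1191) for the F-test. A term for 3 ranges gave 9 (3867) for mCherry against cortex and 19 (6028) for all tumour groups against cortex. It gave 0 (0) for A289V against mCherry, 23 (2012) for A289V against wild-type EGFR and 6 (1083) for the F-test. The neuron covariate gave 1 in both comparisons with cortex (1619 for mCherry, 1869 for all tumour groups). It gave 0 for A289V against mCherry (1), A289V against wild-type EGFR (0) and the F-test (3). For A289V against mCherry, a pseudocount of 0.1 or no filter gave 8, edgeR 5, DESeq2 33, leaving out the high Met libraries 3, and only the groups compared, library numbers below 20, or leaving out A289V libraries 1 and 2 gave 0. For A289V against wild-type EGFR, leaving out A289V libraries 1 and 2 gave 0 (1). The members' median there was -1.09 without the high Met libraries, -0.65 within library numbers below 20 and -1.08 within 20 to 37. DESeq2 gave 4 (196) for A289I against A289V and 36 (3879) for the F-test. The F-test had 8 (1196) with only the groups compared and 0 (2) without A289V libraries 1 and 2. Leaving out 1 library changed the counts over all genes as well, as given above, so these ranges describe the members only. They reached 22 for mCherry against cortex and 38 for all tumour groups against cortex. They were 0 to 22 for A289V against mCherry and 1 to 41 for A289V against wild-type EGFR. For A289I they were 0 to 1 against wild-type EGFR (125 at 1) and 0 to 4 against A289V (534 at 4). For the F-test they were 1 to 45 (1667 at 45). Log2 fold changes that reversed were that of Rps4l, EGFR wild-type against mCherry (-1.66 to 0.23 when 1 library was left out, reversed without mCherry library 1), Rpl22l1 (0.29) and Rpl17 (0.078) in T263P against mCherry with 3 ranges, and Rpl15 (-0.12) and Rps24 (-0.30) in R108K against wild-type EGFR within numbers 20 to 37.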

Other observations

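In the comparison of tumours with cortex, respiratory chain genes were lower and ribosome biogenesis genes higher, when 22.9% of all genes rose and 24.5% fell. Of 72 nuclear-encoded respiratory chain genes tested, 57 fell and none rose over the 8 tumour groups, with Cox8a at a log2 fold change of -1.74 ± 0.28, Ndufv1 at -1.30 ± 0.21 and Atp5j at -1.22 ± 0.20. Of 77 mitochondrial ribosomal protein genes 9 fell and none rose, led by Mrpl41 (-0.92 ± 0.18). Ribosome biogenesis genes rose, 20 of 35, with Nop58, a core protein of box C/D snoRNPs, at 1.84 ± 0.29 and Fbl, the methyltransferase of the same particles, at 1.69 ± 0.30, and 1 fell.

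Over the tumour groups Pabpc1, the poly(A) binding protein, rose by 2.09 ± 0.27 and Npm1 by 1.69 ± 0.32, and 8 of 20 TOP mRNAs outside the ribosome rose in all. The helicase genes Eif4a1 and Eif4a2 went opposite ways, at 1.36 ± 0.29 and -1.965 ± 0.35, in limma's test over all genes (adjusted p = 4.7e-04 and 7.4e-05). All 20 neuron markers fell in the same comparison, and their part in these values was not tested.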
